A study of Mus musculus with 7 samples.

Results

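The collagen chain genes of EMT6 tumors were examined, that is every protein-coding gene of the deposited table whose symbol has the form Col, a number, a and a number. The rule used gene names and no measured value, and it gave 44 of 53465 genes. Enough counts for a test were present for 31 of the 44, while 13 stayed below the filter on low counts.

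Collagens are built of chains that wind around each other in a triple helix, and many collagens need the products of several genes. Fibrillar collagens (types I, III, V, XI and others) form the tensile fibrils of the extracellular matrix, fibril-associated collagens decorate them, type IV forms the network of basement membranes, type VI forms beaded filaments around cells, and other types form hexagonal networks, anchoring fibrils or membrane-spanning molecules. In tumors, collagen is laid down by fibroblasts and by the tumor cells themselves, and its amount and crosslinking shape how stiff the tissue is and how well cells move through it.

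The EMT6 line was derived from a mouse mammary carcinoma, and 500000 of its cells were placed in the mammary fat pad of young adult female Balb/cAnNCr mice. Tumors named EMT6-P (parental) grew in mice given an isotype control IgG, and tumors named EMT6-PTR (αPD-L1 treatment-resistant, PDR in the sample labels) in mice given antibody clone 80 against PD-L1. Either antibody was given at 250 μg per mouse every 3 days from day 1 until the institutional endpoint. RNA was sequenced from 3 EMT6-P and 3 EMT6-PTR primary tumors, with 20476480, 21936692 and 20624015 estimated counts in EMT6-P and 21433396, 20430110 and 25213472 in EMT6-PTR, and from 1 metastasis of the resistant variant with 24592782. The labels give neither the site nor the mouse of the metastasis, and they do not say whether the 3 libraries of a group, called tumors here, came from separate mice. The study's figure legends call replicates technical unless marked otherwise, and no mark to the contrary was found for these libraries, so SDs and p-values measure only the spread between these samples, which may be technical. All 7 libraries, the metastasis included, are labelled as breast tumor tissue of 1 cell line in 1 mouse strain, and they hold host tissue as well as tumor cells. Levels below are CPM, that is counts brought to a common library size by upper-quartile scaling, listed in the order of replicates 1 to 3, and levels of different genes are compared only as CPM per kb of transcript.

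Col3a1, Col11a1 and Col10a1 are the members on which the comparison turns, and Col1a2 was the highest chain per kb in every EMT6-P tumor. The sequences upstream of these 4 chain genes are therefore shown. Each is the 150 bases before the RefSeq start site in GRCm38.p6, on the plus strand, with CCAAT (or its reverse complement ATTGG) and TATAAA in capitals.
Col1a2, chr6:4505468-4505617: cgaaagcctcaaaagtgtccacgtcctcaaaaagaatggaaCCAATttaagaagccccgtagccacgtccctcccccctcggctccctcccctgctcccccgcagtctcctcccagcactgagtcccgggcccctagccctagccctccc
Col3a1, chr1:45311388-45311537: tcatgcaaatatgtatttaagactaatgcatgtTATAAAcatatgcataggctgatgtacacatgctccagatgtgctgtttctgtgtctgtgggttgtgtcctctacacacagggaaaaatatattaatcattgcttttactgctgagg
Col11a1, chr3:114030390-114030539: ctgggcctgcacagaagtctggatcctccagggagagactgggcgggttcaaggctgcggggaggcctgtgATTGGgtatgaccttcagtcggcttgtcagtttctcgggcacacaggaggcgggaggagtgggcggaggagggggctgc
Col10a1, chr10:34389831-34389980: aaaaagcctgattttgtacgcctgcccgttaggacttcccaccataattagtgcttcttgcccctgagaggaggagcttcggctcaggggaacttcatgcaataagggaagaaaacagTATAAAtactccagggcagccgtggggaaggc
The first capital lies at position -109 for Col1a2 and -79 for Col11a1 (CCAAT on the plus and minus strand), and at -117 for Col3a1 and -32 for Col10a1 (TATAAA), counted back from the start site. Across all 32851 promoter windows of the same length, searched on both strands, CCAAT occurred in 24.5% and TATAAA in 7.57%. Of 38 windows of 35 collagen chain genes, 8 (21.1%) held CCAAT and 4 (10.5%) held TATAAA. The letters are a description of the windows only.

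EMT6-PTR replicate 3 stood apart from the other primary tumors. Of the 15645 genes tested, 8.51% were at least 2-fold above every EMT6-P tumor in that library and 10.7% at least 2-fold below, against 2.26% and 0.984% in replicate 1 and 2.84% and 2.3% in replicate 2. Of the 31 tested collagen chain genes, 6 (19.4%) were at least 2-fold above every EMT6-P tumor in replicate 3 and 8 (25.8%) at least 2-fold below, against 1 and 1 in replicate 1 and 3 and 0 in replicate 2. The 6 high genes were Col3a1, Col11a1, Col12a1, Col20a1, Col6a1 and Col10a1, and the 8 low genes were Col5a2, Col5a3, Col27a1, Col14a1, Col4a5, Col23a1, Col15a1 and Col18a1. In replicate 2 the 3 high genes were Col11a1, Col6a3 and Col10a1, and in replicate 1 Col10a1 was high and Col4a5 low. Without a limit on size, 18 of the 31 (58.1%) lay below every EMT6-P tumor in replicate 3 and 11 (35.5%) above, beside 42.7% and 39.8% of all genes, so most genes of any kind left the EMT6-P range in that library. In replicate 2, 17 members (54.8%) lay above every EMT6-P tumor and 4 (12.9%) below, beside 33.8% and 38.2% of all genes, and in replicate 1 the counts were 9 (29%) above and 5 (16.1%) below, beside 32.6% and 32.5%. The median difference of the members from the EMT6-P mean was 0.10, 0.28 and -0.43 on the log2 scale in EMT6-PTR replicates 1, 2 and 3.

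Collagen transcripts took a larger share of the RNA in EMT6-PTR replicate 3 than in any other library. Summed over the 44 chain genes, the level was 9415, 10825 and 12479 CPM in EMT6-P (10906 ± 1533, mean ± SD, n = 3) and 11301, 15091 and 22978 CPM in EMT6-PTR (16457 ± 5957, n = 3). As a share of all counts this was 0.95%, 1.06% and 1.29% against 1.22%, 1.34% and 2.35%. A single gene outside the collagens held 13.8% of the counts of EMT6-PTR replicate 2, which lowers the share of every other gene there. The groups overlapped, since EMT6-PTR replicate 1 lay below EMT6-P replicate 3. Between tumors of the same replicate number, a pairing that the labels do not state, the EMT6-PTR sum was higher each time, with Col3a1 and without it. Of the tested chains, Col1a2, Col3a1, Col6a1, Col6a2, Col10a1, Col11a1, Col12a1, Col16a1 and Col20a1 were higher in this way. Col4a5, Col5a3 and Col17a1 were lower each time, and the other tested chains were mixed. The share of all genes was not counted for this rule, so these lists cannot show whether the members differ from other genes. In bulk tissue, more cells that make collagen and more collagen RNA per cell cannot be told apart. Most of the excess of replicate 3 fell on a single gene, Col3a1: it took 8.58%, 6.73% and 9.27% of collagen counts in EMT6-P and 8.35%, 13.1% and 39.3% in EMT6-PTR. Without Col3a1 the sums were 8607, 10096 and 11322 CPM in EMT6-P and 10357, 13107 and 13954 CPM in EMT6-PTR. The share of Col1a1, which encodes the main chain of type I collagen, was 25.6%, 24.3% and 25.4% in EMT6-P and 26.3%, 24.4% and 11.9% in EMT6-PTR.

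**Figure D1:**
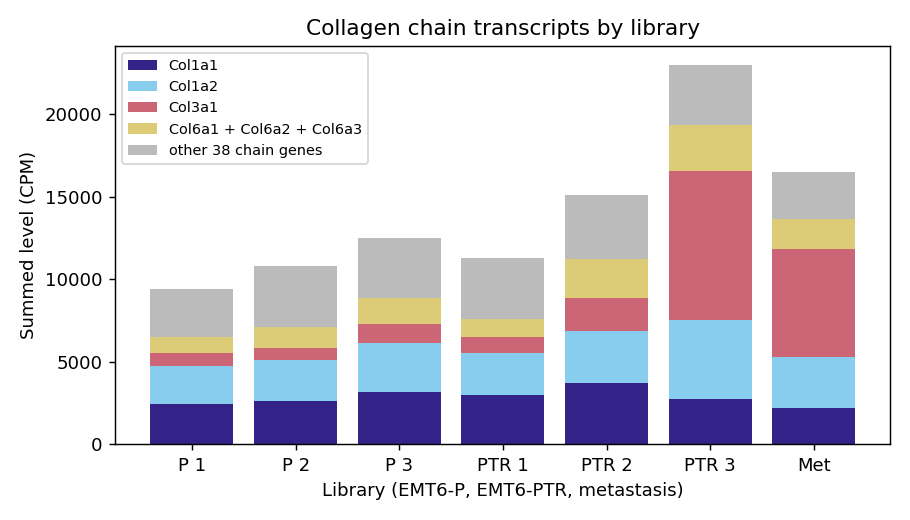
Summed CPM of the collagen chain genes (y axis) in each library (x axis; P, EMT6-P; PTR, EMT6-PTR; Met, metastasis), with stacked bars for Col1a1, Col1a2, Col3a1, the summed Col6a1, Col6a2 and Col6a3, and the other 38 genes. Col3a1 made up 39.3% of collagen counts in EMT6-PTR replicate 3 and 39.8% in the metastasis, and at most 13.1% in the other libraries.

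The question of the design was which transcripts differ between tumors that resumed growth under αPD-L1 and control tumors. With edgeR (quasi-likelihood test, Benjamini-Hochberg adjustment over 15645 genes), 0 of the 31 collagen chain genes passed an adjusted p of 0.05, as did 0% of all genes, and the smallest adjusted p of any gene was 0.421. With limma-voom the count was also 0. DESeq2, which called 2.05% of the 13694 genes it gave an adjusted p, called 2 members higher in EMT6-PTR, Col10a1 (adjusted p = 0.0133) and Col11a1 (adjusted p = 0.0491). At an unadjusted p under 0.05 in edgeR, 3 members were higher, Col10a1, Col11a1 and Col3a1 (9.68% of the members, against 5.84% of all genes), and 2 were lower, Col4a5 and Col17a1 (6.45% against 5.57%). By size alone, 4 members were higher by 2-fold or more, the same 3 genes and Col20a1 (12.9% against 6.27%), and 2 were lower by as much, again Col4a5 and Col17a1 (6.45% against 1.29%). Col10a1, with at most 5 counts in EMT6-P, passed the filter on low counts only through the group where it was high; it drops out when every tumor must hold 10 counts, which leaves 3 of 27 members higher by 2-fold or more (11.1% against 4.26% of all genes). Col4a5, with 4 counts in EMT6-PTR replicate 3, reached 10 counts in all 3 tumors only in the group where it was high and drops out in the same way, which leaves 1 of 27 lower by as much, Col17a1 (3.7% against 0.599%). All 3 EMT6-PTR values lay above all 3 EMT6-P values for 2 tested members, Col10a1 and Col20a1 (6.45% against 9.52%), and below them for 2, Col4a5 and Col5a3 (6.45% against 11.8%). Of the 31 log2 fold changes 17 were above 0 and 14 below, with a median of 0.01 against 0.03 for all genes tested.

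These counts moved with single tumors. Without EMT6-PTR replicate 1, 10 of 31 members (32.3%, against 18% of all genes in the same fit) had an unadjusted p under 0.05, and 8 (25.8% against 8.03%) were at least 2-fold higher. At an unadjusted p under 0.05 there were 2 members without EMT6-P replicate 1 (6.06% against 3.84%), 2 without EMT6-P replicate 2 (6.45% against 5.35%) and 3 without EMT6-P replicate 3 (9.09% against 5.49%). Leaving out EMT6-PTR replicate 3 gave 4 of 32 members at an unadjusted p under 0.05, a share below that of all genes (12.5% against 20.3%), with 4 members 2-fold higher (12.5% against 4.93%) and 2 lower by as much (6.25% against 1.57%). The count at least 2-fold lower went to 5 of 33 when EMT6-PTR replicate 2 was left out (15.2% against 2.29%), and to 4 of 33 when EMT6-P replicate 1 was (12.1% against 1.37%).

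**Figure D2:**
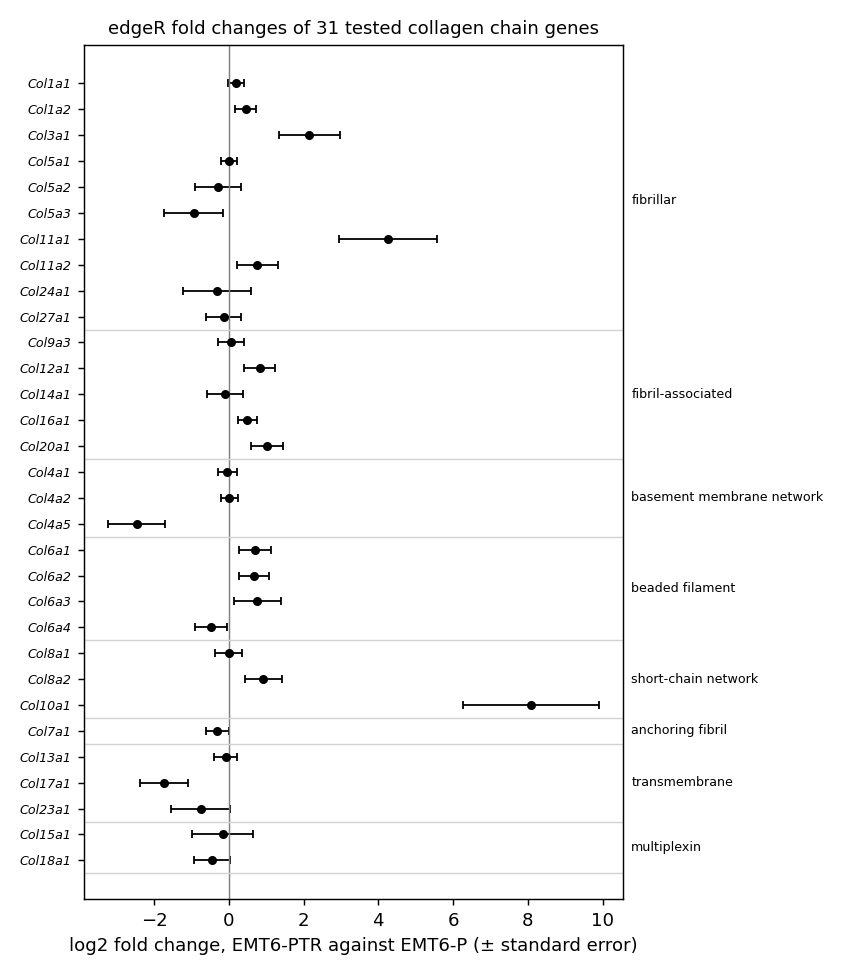
Log2 fold change of EMT6-PTR against EMT6-P (x axis) with its standard error (bars) for the 31 tested collagen chain genes (y axis), grouped by collagen class. Most genes lie near 0, while Col3a1 (2.15), Col11a1 (4.26) and Col10a1 (8.09) lie far to the right and Col17a1 (-1.74) and Col4a5 (-2.46) to the left.

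Among the fibrillar chains, the type I pair was high in every tumor, with overlapping groups, while Col3a1 and Col11a1 were far higher in some EMT6-PTR tumors. Col1a1 measured 2410.4, 2634 and 3169.8 CPM in EMT6-P and 2977, 3682 and 2735 CPM in EMT6-PTR (edgeR log2 fold change 0.19, SE 0.20, adjusted p = 0.702). Col1a2, its partner in type I collagen, measured 2302, 2484 and 2971 CPM in EMT6-P and 2579, 3196 and 4801 CPM in EMT6-PTR (edgeR log2 fold change 0.45, SE 0.27, adjusted p = 0.531). For both genes the groups overlapped, and the highest Col1a2 value was that of EMT6-PTR replicate 3. Col3a1 (ENSMUSG00000026043.18, GRCm38 chr1:45311538-45349706, plus strand) encodes the chain of type III collagen, which joins type I in the fibrils of elastic and healing tissue. Its level was 808, 729 and 1156 CPM in EMT6-P and 944, 1984 and 9024 CPM in EMT6-PTR (898 ± 228 against 3984 ± 4396, mean ± SD, n = 3). EMT6-PTR replicate 1 lay within the EMT6-P range, replicate 2 above it and replicate 3 far above it. The edgeR log2 fold change of Col3a1 was 2.15 (SE 0.81, unadjusted p = 0.0355, adjusted p = 0.431), without EMT6-PTR replicate 3 it was 0.70 (adjusted p = 0.306), and with replicate number as a block 1.54 (adjusted p = 0.598). Per kb of transcript, Col1a2 and Col1a1 were the highest chains in all 3 EMT6-P tumors, at 430.4, 464 and 556 and 406, 444 and 534 CPM per kb, and Col3a1 was the highest in EMT6-PTR replicate 3, at 1622 CPM per kb.

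Type V and type XI chains sit inside type I fibrils and set their diameter. None of their genes passed in edgeR (adjusted p 0.421 to 0.992). In EMT6-PTR replicate 3 the type XI chains lay above every EMT6-P tumor and the type V chains below. Col11a1 (ENSMUSG00000027966.20, chr3:114030540-114220718, plus strand) measured 6.53, 12.1 and 32.3 CPM in EMT6-P and 20.4, 194 and 759.8 CPM in EMT6-PTR. Replicate 1 of EMT6-PTR lay among the EMT6-P tumors, and replicates 2 and 3 lay above all of them. The edgeR log2 fold change was 4.26 (SE 1.31, unadjusted p = 0.0156, adjusted p = 0.421), 2.66 without EMT6-PTR replicate 3 (adjusted p = 0.22) and 3.47 with the replicate block (adjusted p = 0.598). Col11a2, another type XI chain, was low, with 4.21, 2.00 and 1.92 CPM against 2.95, 2.82 and 7.99 CPM. Col5a1 measured 352, 439.9 and 482 CPM in EMT6-P and 475, 491 and 313 CPM in EMT6-PTR (edgeR log2 fold change 0.01, SE 0.23, adjusted p = 0.992), so that the lowest value among the primary tumors was that of EMT6-PTR replicate 3. Col5a2 measured 221, 294 and 264 CPM in EMT6-P and 283, 303 and 48.0 CPM in EMT6-PTR (edgeR log2 fold change -0.30, SE 0.61, adjusted p = 0.857), with replicate 3 the sole low tumor. Col5a3 measured 121, 166 and 128 CPM in EMT6-P and 119.8, 88.1 and 9.00 CPM in EMT6-PTR (edgeR log2 fold change -0.94, SE 0.79, adjusted p = 0.633). All 3 EMT6-PTR values of Col5a3 lay below all EMT6-P values, replicate 1 by less than 1 CPM. The low-level fibrillar chains Col27a1 and Col24a1 measured at most 17.9 and 2.69 CPM in any tumor, and Col27a1 was lowest in EMT6-PTR replicate 3, at 4.38 CPM. Col3a1 and Col5a2 are neighbours on chromosome 1, on opposite strands with a gap of 24614 bases and no coding gene between them.

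**Figure D3:**
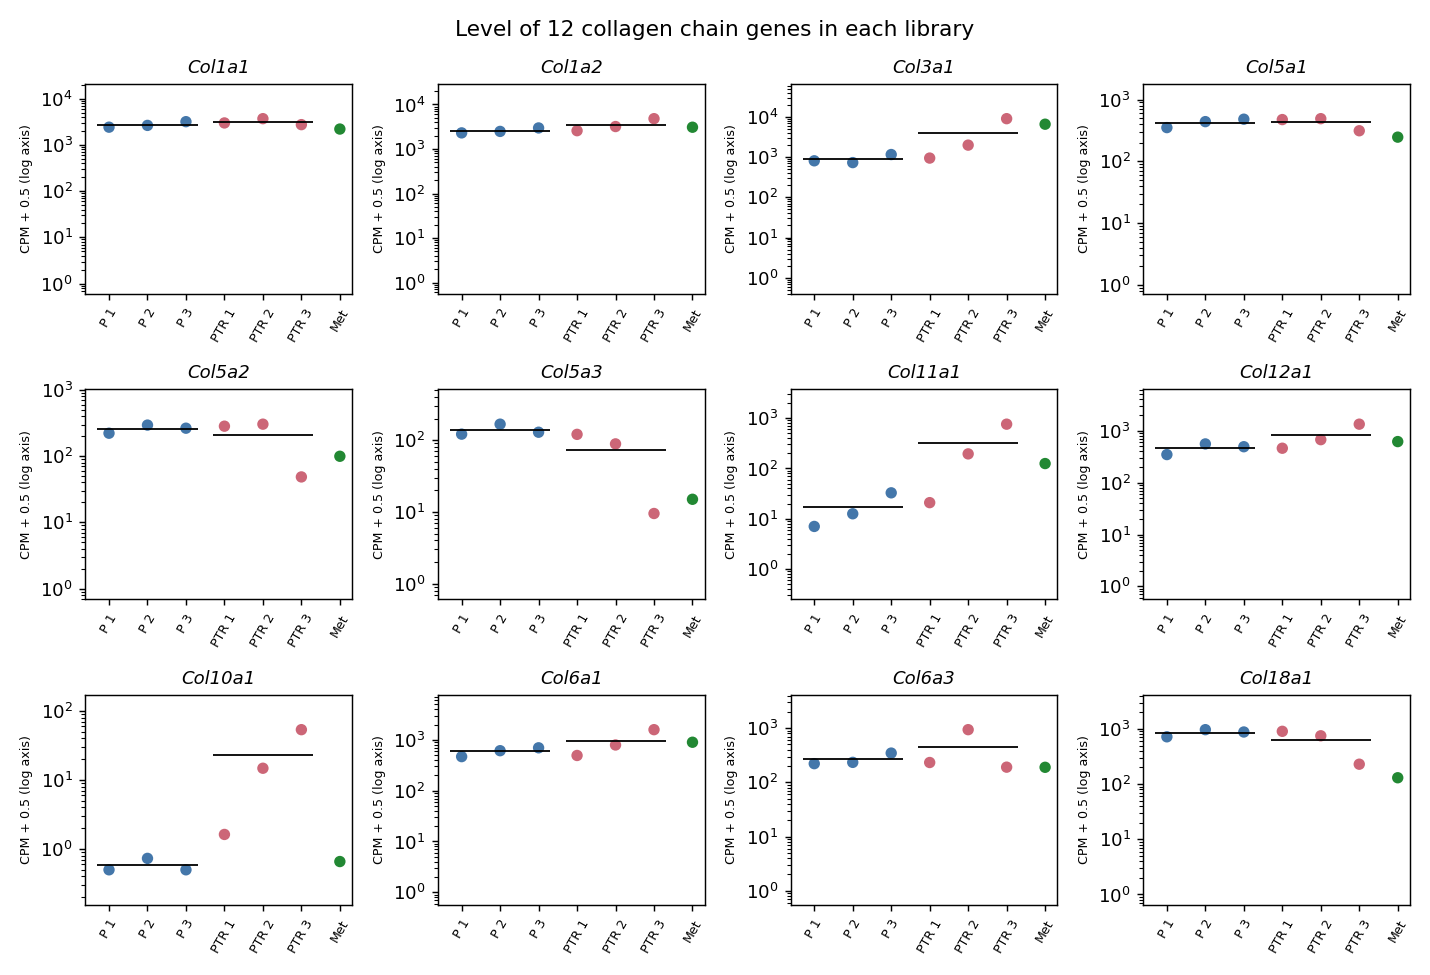
Level of 12 collagen chain genes, as CPM + 0.5 on a log axis (y axis), in each library (x axis; blue, EMT6-P; red, EMT6-PTR; green, metastasis), where points are single libraries and lines the means of 3 tumors. EMT6-PTR replicate 3 is the highest primary tumor for Col3a1, Col11a1, Col12a1, Col10a1 and Col6a1 and the lowest for Col5a2, Col5a3 and Col18a1.

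Fibril-associated collagens lie on the surface of fibrils and link them to other matrix molecules. Col12a1 measured 347, 556 and 492 CPM in EMT6-P and 459.6, 672 and 1338 CPM in EMT6-PTR (edgeR log2 fold change 0.82, SE 0.41, adjusted p = 0.476). Col16a1 measured 126, 167 and 144 CPM in EMT6-P and 155, 178 and 281 CPM in EMT6-PTR (edgeR log2 fold change 0.49, SE 0.25, adjusted p = 0.484). For both, replicate 3 of EMT6-PTR was the highest and replicate 1 lay within the EMT6-P range; without replicate 3 the log2 fold changes were 0.28 and 0.19. Col14a1 went the other way in that tumor, with 33.6, 34.7 and 32.8 CPM in EMT6-P and 42.8, 41.0 and 10.5 CPM in EMT6-PTR (edgeR log2 fold change -0.10, SE 0.48, adjusted p = 0.943). Col20a1 was low throughout, with 3.34, 2.92 and 2.72 CPM in EMT6-P and 3.42, 4.87 and 9.82 CPM in EMT6-PTR (edgeR log2 fold change 1.01, SE 0.43, adjusted p = 0.441). Its groups did not overlap, although EMT6-PTR replicate 1 and EMT6-P replicate 1 were less than 0.1 CPM apart. Col9a3 did not exceed 1.94 CPM, and Col9a1 and Col9a2, the other chains of cartilage collagen IX, stayed under 10 counts in every library.

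In the basement membrane network, the groups overlapped for both chains that are found in nearly all basement membranes. Col4a1 measured 200.0, 197 and 247 CPM in EMT6-P and 265, 223 and 141 CPM in EMT6-PTR (edgeR log2 fold change -0.04, SE 0.25, adjusted p = 0.96). Col4a2 measured 148, 147 and 181 CPM in EMT6-P and 194, 175 and 111 CPM in EMT6-PTR (edgeR log2 fold change 0.01, SE 0.23, adjusted p = 0.982). EMT6-PTR replicate 3 had the lowest value of both genes. Col4a1 and Col4a2 lie head to head on chromosome 8 with start sites 21 bases apart, and since the genes overlap by 22 bases on opposite strands, a few reads could fall on either. Col4a5 (ENSMUSG00000031274.16, chrX:141475385-141689234, plus strand), a chain of specialised basement membranes such as those of kidney and lung, was low and lower still in EMT6-PTR, at 16, 20 and 4 counts (0.693, 1.11 and 0.155 CPM) against 125, 53 and 46 counts (6.05, 2.46 and 2.15 CPM) in EMT6-P. Its groups did not overlap (edgeR log2 fold change -2.46, SE 0.76, unadjusted p = 0.0155, adjusted p = 0.421), and without EMT6-P replicate 1, the highest tumor, the log2 fold change was -1.84. Col4a3, Col4a4 and Col4a6 were not tested. Col4a4 held 8, 10 and 7 counts in EMT6-P and 10, 3 and 40 counts in EMT6-PTR, and Col4a3 and Col4a6 held at most 4 counts in any primary tumor.

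Type VI collagen, whose beaded filaments tie cells to the surrounding matrix, needs chains from Col6a1, Col6a2 and another gene, most often Col6a3. Col6a1 measured 467, 611 and 696 CPM in EMT6-P and 492, 791 and 1584 CPM in EMT6-PTR (edgeR log2 fold change 0.69, SE 0.43, adjusted p = 0.536). Col6a2, its neighbour on chromosome 10, measured 315, 398 and 503 CPM in EMT6-P and 345, 611 and 985 CPM in EMT6-PTR (edgeR log2 fold change 0.67, SE 0.39, adjusted p = 0.517). In both, EMT6-PTR replicates 2 and 3 were the highest and replicate 1 lay within the EMT6-P range, and without replicate 3 the log2 fold changes were 0.12 for Col6a1 and 0.24 for Col6a2. Col6a3 did not follow them: it measured 221, 233 and 346 CPM in EMT6-P and 232, 938 and 190.2 CPM in EMT6-PTR (edgeR log2 fold change 0.77, SE 0.63, adjusted p = 0.623), with replicate 2 the highest and replicate 3 the lowest of all 6 tumors. Without EMT6-PTR replicate 2 the log2 fold change of Col6a3 was -0.34. The alternative chains Col6a4, Col6a5 and Col6a6 held at most 13 counts in any primary tumor.

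Col10a1 (ENSMUSG00000039462.4, chr10:34389981-34397085, plus strand) is known as the collagen of hypertrophic cartilage and was the member with the smallest p-value. EMT6-P tumors held 0, 5 and 0 counts and EMT6-PTR tumors 26, 259 and 1371 counts, which is 0, 0.232 and 0 CPM against 1.13, 14.3 and 53.2 CPM. A count of 0 allows up to 3 counts, a limit that takes in counting error and nothing else. Every EMT6-PTR tumor lay above every EMT6-P tumor, but the 3 EMT6-PTR tumors spread widely (0.0773 ± 0.134 against 22.9 ± 27.1 CPM, mean ± SD, n = 3). The fitted edgeR log2 fold change was 8.09 (SE 1.81, unadjusted p = 0.00347, adjusted p = 0.421), a size that depends on how low counts are treated. With 1 tumor left out it ranged from 6.51 without EMT6-PTR replicate 3 (adjusted p = 0.128) to 11.96 without EMT6-P replicate 2 (adjusted p = 0.791). Col10a1 lies inside the span of Nt5dc1 on the opposite strand, and since the strand setting of the counting is not given, reads of the pair may not be told apart. Nt5dc1 itself measured 11.9, 15.2 and 13.2 CPM in EMT6-P and 14.7, 13.9 and 25.2 CPM in EMT6-PTR. Col8a1, whose product forms a hexagonal network with that of Col8a2 around vessels and in the eye, measured 278, 326 and 349 CPM in EMT6-P and 355, 440.3 and 158 CPM in EMT6-PTR (edgeR log2 fold change 0.00, SE 0.36, adjusted p = 0.999), with replicate 3 the lowest. Col8a2 measured 2.23, 1.21 and 3.28 CPM against 3.55, 6.42 and 2.75 CPM (edgeR log2 fold change 0.92, SE 0.50, adjusted p = 0.495).

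Both multiplexins were lower in EMT6-PTR replicate 3 than in any other primary tumor. Col18a1, a multiplexin whose cleaved end is endostatin, an inhibitor of vessel growth, measured 719.5, 969 and 879.6 CPM in EMT6-P and 904, 751 and 229 CPM in EMT6-PTR (edgeR log2 fold change -0.45, SE 0.47, adjusted p = 0.704). Col15a1, the other multiplexin, measured 33.2, 34.5 and 45.2 CPM in EMT6-P and 39.3, 58.1 and 3.61 CPM in EMT6-PTR (edgeR log2 fold change -0.16, SE 0.82, adjusted p = 0.945). Replicates 1 and 2 of EMT6-PTR lay at or above the lowest EMT6-P tumor for both genes, and replicate 3 lay far below every EMT6-P tumor. Col7a1, the anchoring fibril collagen beneath epithelia, measured 271, 348 and 323 CPM in EMT6-P and 378, 218 and 169 CPM in EMT6-PTR (edgeR log2 fold change -0.30, SE 0.31, adjusted p = 0.692). The transmembrane chain Col17a1 (ENSMUSG00000025064.14, chr19:47646344-47692094, minus strand), part of the hemidesmosomes of epithelial cells, was low, with 0.823, 1.81 and 4.26 CPM in EMT6-P and 0.477, 0.885 and 0.698 CPM in EMT6-PTR. Its groups overlapped, as EMT6-PTR replicate 2 lay above EMT6-P replicate 1 (edgeR log2 fold change -1.74, SE 0.65, unadjusted p = 0.0334, adjusted p = 0.427), and without EMT6-P replicate 3 the log2 fold change was -0.94. Col13a1 measured 3.29, 4.45 and 3.65 CPM against 4.42, 3.60 and 2.72 CPM (edgeR log2 fold change -0.09, SE 0.30, adjusted p = 0.92), with no tumor standing out. Col23a1, the other transmembrane chain tested, measured 1.98, 8.72 and 2.39 CPM against 2.51, 4.42 and 0.854 CPM (edgeR log2 fold change -0.76, SE 0.78, adjusted p = 0.699).

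The remaining chains were at or near the limit of detection. Col9a1, Col9a2, Col19a1, Col22a1 and Col26a1 stayed under 10 counts in every library. Col2a1, the main collagen of cartilage, held 6, 8 and 3 counts in EMT6-P and 3, 0 and 17 counts in EMT6-PTR. Col25a1 and Col28a1 did not exceed 10 and 14 counts in any primary tumor. These genes fell below the filter on low counts, so differences in them were not tested in the edgeR comparison above.

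**Figure D4:**
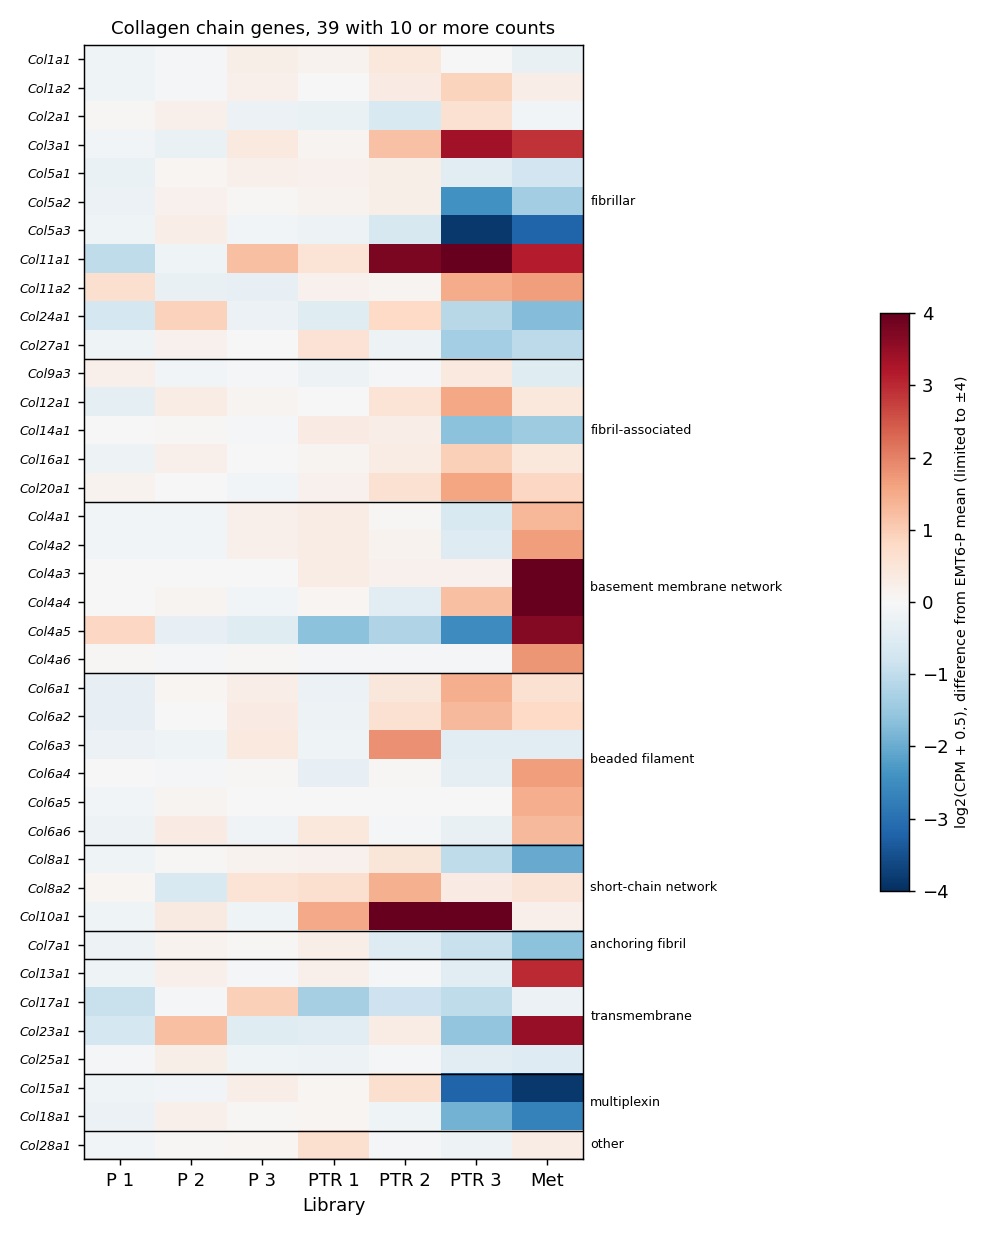
Difference of each library from the EMT6-P mean on the scale log2(CPM + 0.5) (colour, red higher and blue lower, limited to 4 either way) for the 39 collagen chain genes with 10 or more counts in some library (y axis, by class) in each library (x axis). EMT6-PTR replicate 3 and the metastasis share red at Col3a1 and Col11a1 and blue at Col5a2, Col5a3, Col15a1 and Col18a1, and the metastasis alone is dark red at Col4a3, Col4a4, Col4a5, Col13a1 and Col23a1.

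Ratios between chains that share a molecule or a fibril do not depend on the scaling of a library, and 8 were compared over the 6 primary tumors. The exact two-sided permutation test of the log2 ratios cannot give a p below 0.1 with 20 assignments, and none of the 8 reached that value (adjusted p over the 8 ratios 0.8 to 1). Single tumors nevertheless left the range of the others. The ratio of Col1a1 to Col1a2 counts was 1.05, 1.06 and 1.07 in EMT6-P and 1.15, 1.15 and 0.570 in EMT6-PTR (difference of mean log2 ratios -0.22, exact p = 1). EMT6-PTR replicates 1 and 2 lay above every EMT6-P tumor and replicate 3 far below, and without replicate 3 the difference turned to 0.12. Col3a1 to Col1a1 stood at 0.335, 0.277 and 0.365 in EMT6-P and 0.317, 0.539 and 3.30 in EMT6-PTR (difference 1.35, exact p = 0.3). For Col5a2 to Col5a1 the ratio was 0.629, 0.667 and 0.547 against 0.595, 0.617 and 0.154 (difference -0.67, exact p = 0.5). Again the tumor outside the common range was replicate 3. Between tumors of the same number this ratio, alone of the 8, differed in the same direction each time, being lower in EMT6-PTR. The exact p with the replicate block was 0.25, the smallest value that 3 pairs allow, so this test could not pass. Col6a3 to Col6a1 gave 0.473, 0.382 and 0.498 against 0.472, 1.19 and 0.120 (difference -0.14, exact p = 0.8), with replicate 2 above and replicate 3 below all other tumors, and the difference turned to 0.74 without replicate 3 and was -0.91 without replicate 2. The ratios of 2 neighbouring pairs varied less. Col4a1 to Col4a2 was 1.35, 1.34 and 1.37 against 1.36, 1.28 and 1.27 (difference -0.06, exact p = 0.3). Col6a1 to Col6a2 was 1.48, 1.53 and 1.38 against 1.43, 1.29 and 1.61 (difference -0.03, exact p = 0.9). The neighbours Col3a1 and Col5a2, a pair outside the 8 and given with no test, did not keep a close ratio, which was 3.65, 2.48 and 4.39 in EMT6-P and 3.34, 6.54 and 188 in EMT6-PTR. Col5a1 to Col1a1 was 0.146, 0.167 and 0.152 against 0.160, 0.133 and 0.114 (difference -0.20, exact p = 0.3). Col12a1 to Col1a1 was 0.144, 0.211 and 0.155 against 0.154, 0.183 and 0.489 (difference 0.52, exact p = 0.6), and its difference rested on replicate 3, being 0.0025 without it. Without replicate 3 the difference of Col5a2 to Col5a1 was likewise close to 0, at -0.0145.

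New collagen chains are hydroxylated, glycosylated and folded in the endoplasmic reticulum, and none of the 20 genes listed for these steps had an unadjusted p under 0.05 in edgeR, with a median log2 fold change of -0.06. The most abundant was P4hb, a subunit of prolyl hydroxylase. Tmem38b (edgeR log2 fold change 0.64, SE 0.35, adjusted p = 0.503), P3h4 (edgeR log2 fold change -0.29, SE 0.16, adjusted p = 0.509) and Plod1 (edgeR log2 fold change 0.45, SE 0.26, adjusted p = 0.516) had the smallest p-values. Of 13 genes for processing outside the cell and crosslinking, 11 were tested, 1 was higher and 1 lower at an unadjusted p under 0.05, and the median was -0.06. Lox, the enzyme that starts the crosslinking of collagen fibrils, measured 137, 143 and 141 CPM in EMT6-P and 217, 405 and 449 CPM in EMT6-PTR. Every EMT6-PTR tumor lay above every EMT6-P tumor, and the EMT6-P tumors differed little among themselves (edgeR log2 fold change 1.35, SE 0.28, unadjusted p = 0.00227, adjusted p = 0.421). Pcolce2, an enhancer of procollagen cleavage, measured 31.8, 31.9 and 25.7 CPM in EMT6-P and 19.9, 14.7 and 8.03 CPM in EMT6-PTR (edgeR log2 fold change -1.07, SE 0.33, adjusted p = 0.421), all EMT6-PTR values being lower. Loxl4 measured 38.6, 49.4 and 50.5 against 35.9, 31.5 and 15.2 CPM (edgeR log2 fold change -0.74, SE 0.32, adjusted p = 0.444).

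Among the receptors for collagen, 9 of 10 genes were tested, 1 was higher and 0 lower at an unadjusted p under 0.05, and the median was 0.11. Itga10, the collagen-binding integrin chain of cartilage, measured 1.74, 1.58 and 1.92 CPM in EMT6-P and 1.95, 5.25 and 97.4 CPM in EMT6-PTR (edgeR log2 fold change 4.32, SE 1.47, adjusted p = 0.427), with replicate 3 far above the rest. Itgb1, its partner chain (edgeR log2 fold change -0.39, SE 0.19, adjusted p = 0.471), and Itga11 (edgeR log2 fold change 0.58, SE 0.39, adjusted p = 0.567) had the next smallest p-values. Of 14 genes of collagen degradation 12 were tested, 0 were higher and 1 lower, with a median of -0.27. The lower gene was Pepd, a dipeptidase that frees proline (39.3, 37.5 and 36.8 against 30.0, 27.3 and 21.3 CPM, edgeR log2 fold change -0.53, SE 0.16, adjusted p = 0.421). Timp3 (edgeR log2 fold change 0.78, SE 0.33, adjusted p = 0.441), an inhibitor of matrix proteases, and Fap (edgeR log2 fold change 1.66, SE 0.71, adjusted p = 0.443), a protease of activated fibroblasts, did not pass. Mmp1a was listed at 0 in all libraries. Of 13 transcription factors of collagen-producing cells 8 were tested, 0 were higher and 2 lower, with a median of -0.22: the tendon factor Scx (35.4, 34.2 and 51.1 against 26.8, 25.9 and 11.3 CPM, edgeR log2 fold change -0.92, SE 0.36, adjusted p = 0.433) and Twist2 (4.36, 11.5 and 9.18 against 2.51, 4.04 and 0.582 CPM, edgeR log2 fold change -1.82, SE 0.71, adjusted p = 0.433). Prrx1, a factor of fibroblasts, measured 86.0, 119 and 95.6 against 108, 114 and 160.3 CPM (edgeR log2 fold change 0.35, SE 0.21, adjusted p = 0.525).

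Markers of other cell types moved with the collagens in EMT6-PTR replicate 3, and their part in the collagen differences was not tested. The 9 fibroblast markers summed to 588, 1177 and 1142 CPM in EMT6-P and 728, 1292 and 9929 CPM in EMT6-PTR. Of 8 tested, 2 were higher at an unadjusted p under 0.05, Pi16 (3.24, 3.06 and 4.78 against 7.63, 19.5 and 44.2 CPM, edgeR log2 fold change 2.69, SE 0.64, adjusted p = 0.421) and Dcn (32.0, 48.7 and 54.8 against 35.8, 104 and 3322 CPM, edgeR log2 fold change 4.67, SE 1.69, adjusted p = 0.427). Their most abundant gene was Postn, at 435, 892 and 913 against 544, 991 and 5675 CPM. In EMT6-PTR replicate 3, 6 of the 8 were at least 2-fold above every EMT6-P tumor and 2 at least 2-fold below, Thy1 (62.7, 113 and 89.4 against 71.1, 66.5 and 6.63 CPM) and Dpt (2.81, 2.97 and 4.45 against 6.15, 4.70 and 1.40 CPM), both named after their values were seen. Postn and Dcn together held most of the sum of that tumor. The 7 epithelial markers summed to 2646, 2503 and 2712 CPM in EMT6-P and 2598, 2369.8 and 611 CPM in EMT6-PTR, so that replicate 3 was low. Krt8, the most abundant keratin, measured 1885, 1743 and 1793 CPM against 1673, 1708 and 502 CPM. Krt14 measured 314, 352 and 519.9 CPM against 501, 188 and 18.9 CPM, and Krt5 0.726, 3.25 and 26.7 CPM against 9.14, 5.14 and 1.12 CPM. None of the 7 passed an unadjusted p of 0.05. Replicate 3 was the tumor with the highest Col3a1 and Col11a1, the highest fibroblast sum and the lowest epithelial sum.

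Cartilage and tendon markers were compared because Col10a1, Col11a1 and Itga10 are known from these tissues. Of the 9 cartilage markers 2 were tested, with 0 at an unadjusted p under 0.05, and the sums were 52.9, 84.5 and 50.2 CPM in EMT6-P and 52.0, 67.4 and 84.0 CPM in EMT6-PTR. Sox9 made up most of the sum in every primary tumor but EMT6-PTR replicate 3, where it measured 35.5 CPM and Epyc 36.4 CPM. Epyc and Hapln1, named after their values were seen, did not exceed 0.221 CPM in the other primary tumors, and Hapln1 measured 8.50 CPM in replicate 3. Snorc was listed at 0 in all libraries, and Acan, the main proteoglycan of cartilage and also named after its values were seen, did not exceed 1 count in any. Of the collagens that define cartilage, Col9a1 and Col9a2 stayed under 10 counts in every library, and Col2a1 reached 17 counts in EMT6-PTR replicate 3. Col9a3, the remaining type IX chain, held 34, 27 and 27 counts in EMT6-P and 26, 23 and 50 counts in EMT6-PTR. Of the 7 tendon markers 4 were tested. Comp (0.339, 0.0928 and 0.515 against 0.780, 2.16 and 21.8 CPM, edgeR log2 fold change 4.69, SE 1.41, adjusted p = 0.421) and Fmod (3.87, 3.39 and 10.4 against 13.1, 20.3 and 254 CPM, edgeR log2 fold change 4.02, SE 1.28, adjusted p = 0.423) were higher at an unadjusted p under 0.05 and Scx lower. The sums were 42.5, 45.0 and 66.8 CPM in EMT6-P and 47.5, 51.5 and 298 CPM in EMT6-PTR. Of the tendon markers not tested, Tnmd and Kera were named after their values were seen. Tnmd did not exceed 2 counts in any tumor. Kera held 270 counts in EMT6-PTR replicate 3 and 251 in the metastasis, and at most 1 count in any other library.

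Skeletal muscle transcripts were abundant in EMT6-PTR replicate 1, with a summed level of the 9 markers of 5268, 9.40 and 6.44 CPM in EMT6-PTR against 748, 17.6 and 429 CPM in EMT6-P, Acta1 being the most abundant (1647 CPM in that library). The collagen sum of that tumor, 11301 CPM, lay within the EMT6-P range. The other lists are given by their sums in the primary tumors, each with the gene that was highest per kb over them. Bone markers (led by Spp1) summed to 4310.2, 5281 and 3029.6 against 2836, 3702 and 2592 CPM. Spp1 made up nearly all of that sum, at 4306, 5279 and 3023 against 2832, 3644 and 2576 CPM. Adipocyte markers (led by Fabp4) summed to 16.6, 10.2 and 25.2 against 30.8, 26.9 and 20.3 CPM. Smooth muscle and pericyte markers (led by Des) summed to 157, 95.4 and 158 against 540.1, 135 and 66.4 CPM. Des alone measured 85.2, 4.41 and 73.4 against 404, 3.71 and 1.125 CPM, in the same order over the tumors as the skeletal muscle sums. Endothelial markers (led by Pecam1) summed to 151, 138 and 179 against 196, 170.1 and 149 CPM, Schwann cell markers (led by Mbp) to 14.9, 14.8 and 14.6 against 16.3, 20.2 and 25.5 CPM, and leukocyte markers (led by Cd68) to 619.7, 582 and 556 against 728, 659 and 396 CPM. In these 6 lists, 1 bone marker, Alpl (edgeR log2 fold change 2.96, SE 1.07, adjusted p = 0.427), and 1 pericyte marker, Notch3 (edgeR log2 fold change 1.25, SE 0.38, adjusted p = 0.421), were higher at an unadjusted p under 0.05 and 0 lower.

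In the metastasis, Col3a1 led the collagens as it did in EMT6-PTR replicate 3, and type IV chains were higher than in any primary tumor. The metastasis has no replicate, and its values are set beside the range of the 6 primary tumors without a test. Collagens summed to 16505 CPM (1.69% of all counts), and Col3a1 was the leading chain, with 6571 CPM (39.8% of collagen counts) and 1181 CPM per kb. Its ratio of Col3a1 to Col1a1 was 2.99 and that of Col1a1 to Col1a2 0.712, on the side of EMT6-PTR replicate 3 in each case. Col11a1 stood at 125 CPM, Col5a3 at 14.5 CPM, Col15a1 at 2.10 CPM and Col18a1 at 129.9 CPM. Col10a1 held 4 counts, close to EMT6-P.

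Of 39 members with at least 10 counts in some library, 10 (25.6%) were at least 2-fold higher in the metastasis than in every primary tumor, beside 8.74% of 19002 genes, and 1 (2.56%), Col8a1, was at least 2-fold lower, beside 0.61%. The 10 were all 6 type IV chains, Col6a4, Col6a5 and the transmembrane chains Col13a1 and Col23a1. Of these, Col4a3, Col4a6 and Col6a5 had 10 counts in the metastasis alone, so that they entered only through the library where they were high. Among the 36 members with at least 10 counts in some primary tumor, a filter added after the data were seen, 7 (19.4%) were higher, beside 5.77% of 17880 genes, and 1 (2.78%) was lower, beside 0.649%. Col4a1 and Col4a2 reached 535 and 503 CPM, against at most 264.6 and 194.4 CPM in a primary tumor, and their ratio was 1.06. Col4a3, Col4a4 and Col4a5, which together form the type IV network of lung alveoli and kidney glomeruli, held 602, 745 and 1183 counts (23.9, 29.6 and 47.0 CPM), against at most 4, 40 and 125 counts in a primary tumor. Col4a3 and Col4a4 lie head to head on chromosome 1 with start sites 72 bases apart, and per kb they were close, at 2.79 and 2.92 CPM per kb. Col4a6, whose start site lies 1309 bases from that of Col4a5 on chromosome X, held 33 counts. Col13a1 measured 33.4 CPM and Col23a1 44.5 CPM, against at most 4.45 and 8.72 CPM in the primary tumors.

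Lung markers moved with these chains in the same library, and their part in them was not tested. The 7 lung epithelium markers summed to 8369 CPM in the metastasis, against 10.3, 6.91 and 10.7 CPM in EMT6-P and 10.8, 31.7 and 24.8 CPM in EMT6-PTR. Ager was higher in EMT6-PTR than in EMT6-P at an unadjusted p under 0.05 (1.60, 1.44 and 1.78 against 3.12, 25.9 and 11.9 CPM, edgeR log2 fold change 3.08, SE 0.74, adjusted p = 0.421). Scgb1a1, the most abundant, measured 2986 CPM in the metastasis, and Ager, a marker of the flat cells of alveoli, 751 CPM. Sftpc, a surfactant gene named after its values were seen, measured 2331 CPM and at most 0.187 CPM in a primary tumor. Endothelial markers summed to 1122 CPM, with Pecam1 at 283 CPM, and the fibroblast marker Tcf21, named after its values were seen, was at 0 in all 6 primary tumors and at 9.29 CPM here. Schwann cell markers summed to 149 CPM, against at most 25.5 CPM in a primary tumor. The remaining sums in the metastasis were 3078 CPM for fibroblast, 1345 CPM for epithelial, 1832 CPM for bone, 522 CPM for leukocyte and 132 CPM for smooth muscle and pericyte markers. Tendon markers summed to 43.5 CPM, cartilage markers to 17.7 CPM, adipocyte markers to 15.0 CPM and skeletal muscle markers to 3.89 CPM.

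**Figure D5:**
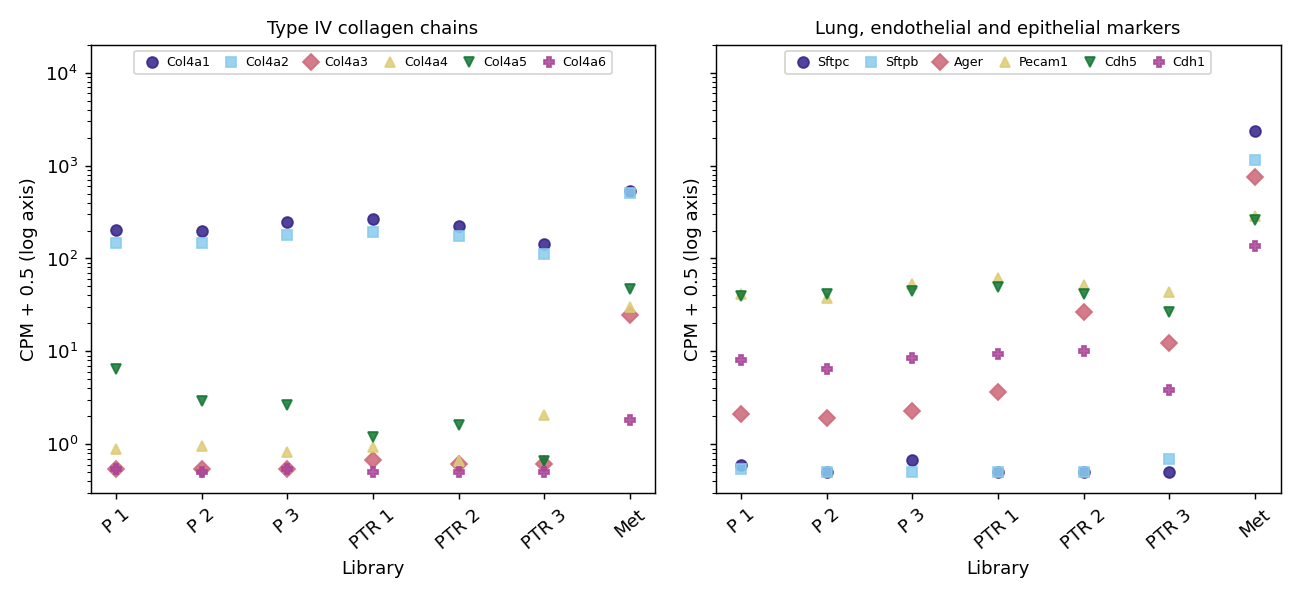
Levels as CPM + 0.5 on a log axis (y axis) in each library (x axis) of the 6 type IV collagen chain genes (left) and of the lung markers Sftpc, Sftpb and Ager, the endothelial markers Pecam1 and Cdh5 and the epithelial marker Cdh1 (right), with 1 point per library. The metastasis is the highest library for every gene shown, with Col4a5 at 47.0 CPM and Sftpc at 2331 CPM.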

How the data were processed

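Stranded polyA libraries of 6 primary tumors (3 EMT6-P, 3 EMT6-PTR) and 1 metastasis were sequenced on a NextSeq500. The authors checked reads with FastQC 0.11.5, aligned them with STAR 2.6.0a to GRCm38 (GENCODE M16) and estimated counts with RSEM 1.3.1. Whether strand was used in counting is not given in the sources used here. The deposited values are estimated counts per gene, unfiltered and not normalized, with 13.5% to 15.6% of values fractional. RSEM divides reads shared by similar genes by estimation.

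Counts were rounded to whole numbers. Symbols, positions and transcript lengths came from GENCODE M21 of the same assembly, by identifier without version (53274 of 53465 matched, all 44 members among them). Genes were filtered with filterByExpr, given upper-quartile factors and tested in edgeR 4.0.16 (glmQLFit, glmQLFTest; R 4.3.3) over the 6 primary tumors, with Benjamini-Hochberg adjustment over all 15645 genes and a threshold of 0.05. The SE is the log2 fold change divided by the square root of F. Per kb refers to the transcript with the longest coding sequence. Ratios used a prior count of 0.5 and exact permutation tests over 20 assignments (scipy 1.17.1). The metastasis was compared after adding 0.5 CPM, for genes with at least 10 counts in some library, and entered no test. Fits were tried on simulated counts, and no result of that is reported here. Every collagen chain gene could be named; of each other list, the 3 genes with the smallest p, the most abundant marker and genes at 0 throughout. Genes outside this rule are marked in the text as named after their values were seen, as were Sftpb, Cdh5 and Cdh1 in a figure. The members and all lists were chosen with earlier results of these data known.

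The labels number the tumors but do not state that same-numbered tumors are paired. Deviations from the group means of same-numbered tumors correlated at 0.243, 0.204 and 0.108 (replicates 1, 2 and 3). Those of differently numbered tumors correlated at -0.204 to 0.0362. Since deviations were centred within each group, these correlations depend on each other and cannot decide whether the tumors are paired. Alternatives were TMM and total-count scaling, DESeq2 1.42.0, limma-voom (limma 3.58.1), no filter, a minimum of 10 counts in each tumor, a fit that also holds the metastasis, a replicate block, a prior count of 2 and leaving out each tumor. A filter of 10 counts in some primary tumor was added for the metastasis after the data were seen.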

Additional observations from a re-analysis of the deposited data

Results flagged for a closer look

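The metastasis entered no comparison with replicates. Col4a3, Col4a4, Col4a5, Col13a1 and Col23a1 were at least 4-fold above the highest primary tumor there, after adding 0.5 CPM. The share of all genes at this limit was not counted, so it cannot be said whether the chains stand out at it. At 2-fold, 25.6% of members and 8.74% of all genes were higher there than in every primary tumor. Of the genes named, Col4a3 held at most 4 counts in any primary tumor, so that it entered only through the library where it was high. Col4a3 measured 23.9 CPM, Col4a4 29.6 CPM and Col4a5 47.0 CPM. Of the transmembrane chains, Col13a1 measured 33.4 CPM and Col23a1 44.5 CPM. Lung epithelium markers summed to 8369 CPM and endothelial markers to 1122 CPM in the same library, and their part in these levels was not tested. With 1 library there is no measure of spread.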

How the results depend on the processing

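edgeR called 0 collagen chain genes and 0 of all genes under every scaling, filter and left-out tumor, while DESeq2 called 2 collagen chain genes and 281 genes in all. At an unadjusted p under 0.05, the 5 members (16.1%, against 11.4% of all genes) became 2 with limma-voom (6.45% against 10.4%) and 2 to 10 with 1 tumor left out, where the share of all genes ran from 3.84% to 20.3%. The count at least 2-fold higher was 7 of 44 with no filter on low counts (15.9% against 21.8% of all genes) and 3 to 8 with 1 tumor left out (4.93% to 8.09% of all genes), and the count at least 2-fold lower was 4 with limma-voom (12.9% against 3.45%), 1 of 27 with at least 10 counts in every sample (3.7% against 0.599%) and 2 to 5 with 1 tumor left out (1.37% to 4.66%). The cause was not tested, other than that the filters changed which genes entered. The fit with the replicate block changed no call and moved no count of members by over 1.5 times (5 members at an unadjusted p under 0.05 with and without it). The shares of all genes moved more. With the block 3.96% were at least 2-fold higher, against 6.27% without it, and 2.54% at least 2-fold lower, against 1.29%. The block also moved log2 fold changes: Col3a1 to 1.54, Col11a1 to 3.47, Col5a3 to -1.48 and Col15a1 to -0.67. In TMM scaling the metastasis levels were 2231 CPM for Col1a1 and 6675 CPM for Col3a1.

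Of 31 members, 18 kept the sign of the log2 fold change under every alternative, as did 5 of 8 chain ratios. Those that changed sign with no tumor left out lay near 0: Col4a2 was -0.0092 under total-count scaling, -0.0154 with limma-voom and -0.0158 with the replicate block. Under the same settings Col5a1 was -0.0228, -0.0055 and -0.0084. Col8a1 was -0.0431, -0.1087 and -0.1078, and -0.0008 with no filter. With 1 tumor left out, log2 fold changes ranged from -0.24 to 0.18 for Col4a1, -0.15 to 0.22 for Col4a2, -0.11 to 0.19 for Col5a1, -0.64 to 0.17 for Col5a2, -0.34 to 1.13 for Col6a3, -0.30 to 0.32 for Col8a1, -0.21 to 0.21 for Col9a3, -0.27 to 0.0774 for Col13a1, -0.39 to 0.31 for Col14a1, -0.81 to 0.37 for Col15a1, -1.37 to 0.24 for Col23a1, -1.52 to 0.60 for Col24a1 and -0.70 to 0.24 for Col27a1. Differences of mean log2 ratios ranged from -0.39 to 0.12 for Col1a1/Col1a2, 0.35 to 2.04 for Col3a1/Col1a1, -0.32 to -0.0849 for Col5a1/Col1a1, -1.02 to -0.0145 for Col5a2/Col5a1, -0.0894 to -0.0397 for Col4a1/Col4a2, -0.11 to 0.0477 for Col6a1/Col6a2, -0.91 to 0.74 for Col6a3/Col6a1 and 0.0025 to 0.83 for Col12a1/Col1a1.

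The single metastasis allows no test, and 13 chain genes had too few counts for a test.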
